A study of Homo sapiens with 26 samples.

Results

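The genes of the cytoplasmic ribosome's proteins were followed through 6 comparisons in 3 cell lines. Members were taken by symbol: RPL or RPS with a number and an optional A or X, together with RPLP0, RPLP1, RPLP2 and RPSA, present in all 5 expression tables with a mean value of at least 100 in each. Of the 26485 gene symbols in every table, 77 matched by name and 68 passed the minimum, 41 of the large subunit and 27 of the small. The 9 that did not pass were RPL7, RPL9, RPL21, RPL36A, RPL39, RPS10, RPS26, RPS27 and RPS28. Values are normalised counts, that is read counts per gene divided by a size factor of the library.

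The eukaryotic ribosome joins a large subunit, which forms peptide bonds and holds the exit tunnel for the new chain, to a small subunit, which binds and decodes the mRNA. Each subunit is a core of ribosomal RNA dressed with proteins that are needed in near-equal numbers, and their mRNAs are among the most abundant and shortest of a growing cell. Most of these mRNAs start with a cytosine inside an unbroken stretch of pyrimidines, the 5′ terminal oligopyrimidine (TOP) motif, through which their translation and stability respond to growth signals. Several of the genes are mutated in Diamond-Blackfan anemia, an inherited failure of red cell production.

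KYSE180, TE6 and KYSE150 are established human lines of esophageal squamous cell carcinoma (ESCC). BRDT is a bromodomain protein of the BET family that is normally restricted to male germ cells, and TP63 encodes the squamous transcription factor p63. KYSE180 and TE6 were transfected for 48 h with a control siRNA (siCont) or with an siRNA against BRDT (siBRDT) or TP63 (siTP63). KYSE180 had its own siCont for each target (3 against 3 libraries for BRDT, 2 against 2 for TP63), while in TE6 the 2 siBRDT and 2 siTP63 libraries share 2 siCont libraries. KYSE150, with little BRDT of its own, received siCont or siTP63, also for 48 h (2 against 2). In a separate experiment it received the control or the BRDT overexpression plasmid (BRDT-OE, 3 against 3). Per the paper, siRNAs were delivered with Lipofectamine RNAiMAX and the plasmids for sequencing by electroporation. All groups, controls included, had been transfected. The labels do not say whether replicates came from separate cultures, so p-values measure only the spread between these libraries, which may be technical. Neither the siRNA sequences used for sequencing nor the time from plasmid to harvest is given in the sources used here, and the BRDT counts in BRDT-OE include reads from the plasmid.

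Libraries held 7582089 to 19372441 reads in genes. The targeted genes moved as labelled: BRDT fell in siBRDT by 2.75 (KYSE180) and 2.23 (TE6) on the log2 scale, TP63 fell in siTP63 by 1.70 (KYSE180) and 4.45 (TE6), and BRDT counts were 15871, 15927 and 17542 in BRDT-OE against 8.13, 16.0 and 6.58 in its control. TP63 also fell in siBRDT, by 0.58 in KYSE180 and by 1.15 in TE6. In KYSE150 siTP63 the TP63 counts were 170.4 and 114 against 695 and 729 (adjusted p = 0.0818), in an experiment where no gene passed in limma. The 8 squamous markers (TP63, KRT5, KRT6A, KRT14, KRT17, SFN, DSG3 and PKP1) were above 0 in every library, with a sum of 854 to 9245 RPM, that is reads scaled to 1000000 gene reads per library. It was 7512 to 7816 in TE6 siCont, 4652 to 4969.7 in siBRDT and 1605 to 1742 in siTP63, and 8646 to 9037 against 5165 to 5273 in the KYSE180 TP63 experiment. For KYSE180 siCont and siBRDT it was 8618 to 9245 and 5362 to 5554, for KYSE150 siCont and siTP63 1900.4 to 2322 and 854 to 874, and for the plasmid control and BRDT-OE 1328 to 1584 and 1485 to 1596. Of 9 markers of blood, vessel, stromal and liver cells, PTPRC, CD3E, PECAM1, DCN and ALB stayed at or under 0.880 RPM. COL1A1 reached 94.3, a further stromal marker 14.7 and a further vessel marker 10.8. The sum of the 9 was 33.5 to 36.1 RPM in KYSE180 siCont and 65.4 to 74.7 in siTP63 of that experiment, 89.8 to 102 and 96.4 to 109 in siCont and siBRDT, 4.5 to 5.17 and 9.74 to 17.7 in KYSE150 siCont and siTP63, 9.10 to 10.3 and 4.51 to 5.38 in the plasmid control and BRDT-OE, and 22.1 to 25.8, 21.4 to 22.4 and 20.6 to 24.8 in the 3 TE6 groups. The part of these sums in the results was not tested. In such bulk RNA a smaller share of cells and less RNA per cell cannot be told apart.

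Shown first are the first transcribed bases of 12 members, picked by hand from those named below. The TOP start is the feature the family is known for. The bases were taken from the RefSeq annotation of GRCh38.p14 and run from 15 bases before the annotated start to 15 from it, 5′ to 3′. Capitals mark the unbroken pyrimidine run that opens the transcript. RPS19 and RPL19 have 2 annotated starts each, and the start with the longest such run is shown.
RPS6 (chr9:19380222-19380251, minus strand): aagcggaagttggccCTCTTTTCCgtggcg
RPL28 (chr19:55385917-55385946, plus strand): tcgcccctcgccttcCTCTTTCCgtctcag
RPLP1 (chr15:69452803-69452832, plus strand): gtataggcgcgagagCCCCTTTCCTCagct
RPLP2 (chr11:809952-809981, plus strand): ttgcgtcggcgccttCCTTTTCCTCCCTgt
RPS19 (chr19:41860240-41860269, plus strand): ggaaaccccgtcgttCCCTTTCCCCTggct
RPS12 (chr6:132814554-132814583, plus strand): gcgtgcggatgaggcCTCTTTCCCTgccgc
RPS21 (chr20:62387088-62387117, plus strand): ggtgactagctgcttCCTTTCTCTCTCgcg
RPSA (chr3:39406705-39406734, plus strand): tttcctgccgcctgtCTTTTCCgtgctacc
RPL35 (chr9:124861943-124861972, minus strand): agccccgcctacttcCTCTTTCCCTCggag
RPL37A (chr2:216498829-216498858, plus strand): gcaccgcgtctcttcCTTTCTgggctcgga
RPL12 (chr9:127451392-127451421, minus strand): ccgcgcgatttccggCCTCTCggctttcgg
RPL19 (chr17:39200308-39200337, plus strand): gagcgagctctttccTTTCgctgctgcggc

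The runs were 4 to 13 bases long. In 11 of the 12 the transcript opened with a cytosine, and in RPL19 with a thymine. In RPL19 and several others, among them RPL28, RPLP2, RPL35 and RPL37A, pyrimidines also lay directly before the annotated start, outside the capitals. Of the 68 members, 54 had an annotated start in the table, and 41 of these (75.9%) had a start with C at the first base and at least 4 further pyrimidines (C or T, sense strand). The same feature was at a start of 1404 of 27305 genes in the whole table (5.14%). Members whose annotated starts lacked it included RPS29, RPS7, RPL3, RPL17 and RPL15, which are named below and not printed above.

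Members took up a large and variable part of every library. Their share of reads was 4.02, 3.92 and 3.56% in siCont and 3.31, 3.07 and 2.79% in siBRDT of the KYSE180 BRDT experiment, with no overlap. In TE6 it was 11.1 and 10.8% in siCont, 14.9 and 14.4% in siBRDT and 15.1 and 13.8% in siTP63, so that all 4 knockdown libraries lay above both controls. In the KYSE180 TP63 experiment the share was 10.4 and 11.4% in siCont and 6.63 and 5.98% in siTP63, the widest gap of the 6 comparisons. In KYSE150 the siCont libraries had 11.8 and 8.97% and the siTP63 libraries 9.50 and 13.2%, which overlapped. The BRDT-OE libraries had 4.31, 4.22 and 4.28% against 5.27, 4.51 and 6.15% in their control, with the 3 control libraries spread more widely than the 3 treated ones.

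**Figure D1:**
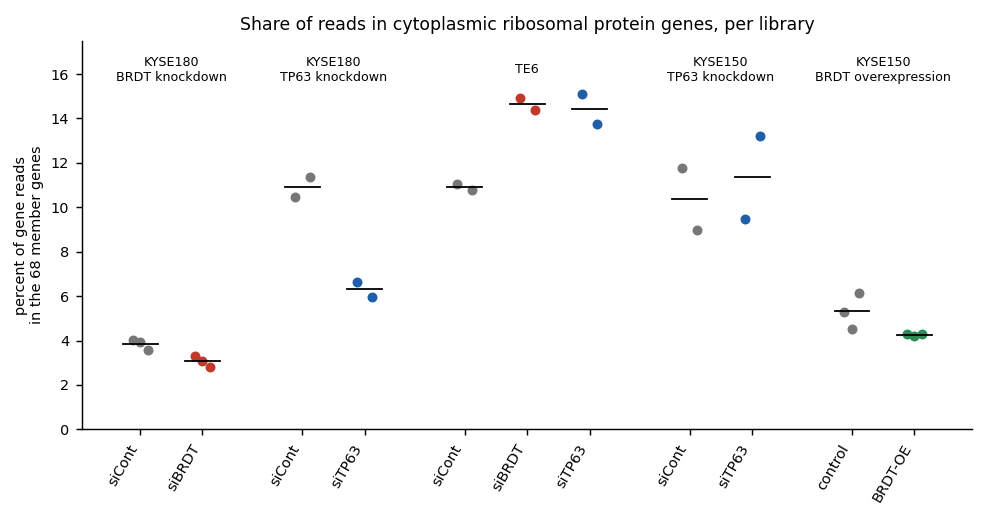
Percent of each library's gene reads that fell in the 68 member genes (y axis), by experiment and group; points are libraries and black lines group means. KYSE180 knockdown libraries sit below their controls, between 2.79% and 6.63%, and TE6 knockdown libraries sit above theirs, between 13.8% and 15.1%.

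The same cell line gave different baseline shares in its 2 experiments. Member RPM in the siCont libraries of the KYSE180 TP63 experiment exceeded those of the BRDT experiment by a median ratio of 2.87 (range 1.47 to 4.37), largest in RPL23A and least in RPL17. For KYSE150 the siCont libraries exceeded the plasmid controls by a median ratio of 1.98 (range 1.21 to 2.97). All 68 members were thus higher in 1 experiment of a line than in the other, and experiment and handling cannot be told apart here. In KYSE150 the 2 control sets also differed in delivery, by Lipofectamine RNAiMAX or electroporation. Fold changes below were therefore taken only within an experiment.

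Among members, levels per kb of coding sequence in control libraries spanned a wide range. RPL41, which encodes the smallest protein of the ribosome, had the highest median over the 5 control groups, with 2831 and 9657 RPM per kb in the 2 KYSE180 controls, 14282 in TE6 and 14363 and 6364 in KYSE150. It was exceeded by RPL8 (3126) and RPL37 (2854) in the KYSE180 BRDT experiment, by RPS19 (10793) in the KYSE180 TP63 experiment and by RPL19 (20780.1) in TE6. By the same median RPL37 (8049.9 RPM per kb) and RPL8 (6348) followed. The lowest members were RPS3A (57) and RPL17 (108). The annotation holds 49 pseudogene copies named after RPL17 and 53 after RPS3A, against 3 after RPL41. Across the 68 members the level fell with the number of copies (Spearman's rho -0.43, a description over genes counted in the same libraries). How reads that map to several places were counted is not given in the sources used here, so levels of members with many copies, and of the 9 symbols under the minimum, are uncertain.

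Spearman's rho between the member levels of 2 control groups, over the 68 members, was 0.806 to 0.885 between lines, 0.936 between the 2 KYSE180 groups and 0.917 between the 2 KYSE150 groups. To compare a gene with itself between lines, its log2(RPM + 1) was taken relative to the median member of the library. On this scale RPL19 in TE6 stood more than 1 log2 unit above every other line. RPL19, which forms a bridge between the subunits, was 3.38 above the median member in TE6 and 0.36 to 1.29 above it elsewhere. It alone took 1.26% and 1.18% of the reads of the TE6 siCont libraries, 12219 RPM on average against 2970.2 RPM in the next highest control group. RPL19 lies at chr17:39200283-39204840 (hg38, GENCODE v44), and among genes further along the same arm were STARD3 (3.97 times the highest other control group), ERBB2 (3.26 times) and GRB7 (4.52 times), while between RPL19 and STARD3 lay FBXL20 (2.53 times), MED1 (2.08 times) and CDK12 (0.906 times). DNA copy number was not measured here.

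**Figure D2:**
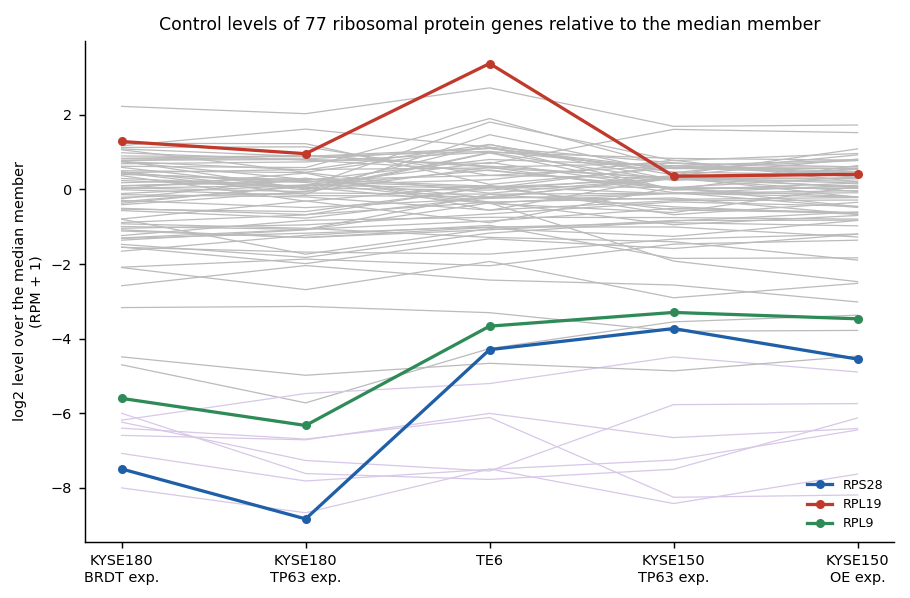
Level of each ribosomal protein gene in the 5 control groups, as log2(RPM + 1) minus that of the median member of the same library (y axis), with 68 members in grey and the 9 symbols under the minimum in pale violet unless named. RPL19 peaks in TE6, and RPS28 and RPL9 are lowest in both KYSE180 groups.

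Of the 9 symbols under the minimum, RPS28, RPL9 and RPS10 differed by more than 1 log2 unit between a line and the others on this scale. RPS28, a small-subunit protein at the mRNA exit, had counts of 17.2, 18.1 and 26.5 and 29.9 and 50.3 in the 2 KYSE180 siCont groups, 676 and 645 in TE6 siCont and 2404 and 1300.4 and 454, 401 and 556 in the KYSE150 controls. RPL9 had 104, 119 and 95.1 and 293 and 313 in KYSE180 and 997 and 1061 in TE6. Against the median member, RPS28 in KYSE180 was at least 2.95 log2 units below the lowest other line and RPL9 1.94, and RPS10 in KYSE150 was 1.5 below. The gap was at most 0.47 for the other 6. These levels come from tables normalised separately and were not tested.

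After BRDT knockdown in KYSE180, part of the family fell. Calls needed an adjusted p under 0.05 in limma and a change of 0.5 or more, up or down, in log2 units. Of 68 members, 16 fell and 0 rose, where 15.8% of the 13589 genes tested fell and 14.5% rose. Without the fold limit 51 fell (29.8% of all genes) and 1 (28.6%) rose, the latter being RPS7. The median log2 fold change of members was -0.41 (range -0.99 to 0.21), beside -0.0052 over all genes, and 51 members had all 3 siBRDT libraries below all 3 controls. So did 34 of 70 other short, highly expressed genes (described below), while 8 of those 70 lay above. Such separation was not counted over all genes in any comparison. By subunit, 11 of 41 large-subunit and 5 of 27 small-subunit members fell, with medians of -0.43 and -0.40.

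RPL19 had 14675, 14086 and 13008 normalised counts in siCont and 7654, 7006 and 6372 in siBRDT, a log2 fold change of -0.99 ± 0.074 (SE, adjusted p = 4.03e-08). Every siBRDT library lay well under the lowest control, the largest decrease of any member here. RPL37A, a zinc-binding protein of the large subunit, had 4878, 4796 and 3970.0 and then 2555, 2387 and 2068, a change of -0.96 ± 0.088 (SE, adjusted p = 3.50e-07). RPL32, another large-subunit protein, changed by -0.89 ± 0.076 (SE, adjusted p = 1.71e-07), from 5738, 5840.4 and 5423 to 3399.8, 3104 and 2709. RPL35, which sits by the mouth of the exit tunnel, changed by -0.66 ± 0.083 (SE, adjusted p = 7.66e-06). For these 4 genes the groups did not overlap. RPS6, the small-subunit protein phosphorylated by S6 kinase, fell by 0.64 ± 0.079, with 13147, 12363 and 10936 in siCont and 8563, 7715 and 7159 in siBRDT.

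Other named members changed less. RPL5 and RPL11, which carry the 5S ribosomal RNA into the large subunit and bind MDM2 when free, had log2 fold changes of -0.48 ± 0.072 (SE, adjusted p = 4.25e-05) and -0.47 ± 0.082 (SE, adjusted p = 1.70e-04), just short of the fold limit. RPLP0, the stalk protein that recruits elongation factors, had -0.23 ± 0.064 (SE, adjusted p = 0.00722), and its partners RPLP1 and RPLP2 had 0.022 and -0.13 with overlapping groups. RPL10, which joins the large subunit late, had -0.0099 ± 0.073 (SE, adjusted p = 0.916), with counts of 2086, 1945 and 1799.6 in siCont and 2066, 1940.4 and 1785 in siBRDT, with no difference detectable between these libraries. RPS19, the gene most often mutated in Diamond-Blackfan anemia, had -0.37 ± 0.088 (SE, adjusted p = 0.00241). RPS27A, made as a fusion to ubiquitin, had -0.22 ± 0.099 (SE, adjusted p = 0.0720). At the other end, RPS7, mutated in some Diamond-Blackfan families, had 0.21 ± 0.082 (SE, adjusted p = 0.0374) and RPS12, of the small subunit, 0.11 ± 0.079 (SE, adjusted p = 0.262). The count of members that fell was 30 without siCont replicate 3 and 28 without siBRDT replicate 1. The shares of all genes in those fits are not given here.

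In TE6 the same knockdown went with an increase of many members. Of 68 members, 36 rose and 0 fell, where 15.6% of the 13333 genes tested rose and 18.1% fell. Without the fold limit 60 rose (21.9% of all genes) and 0 fell (23.9%). The median log2 fold change was 0.52 (range -0.047 to 1.01), beside -0.039 over all genes, and in 66 members both siBRDT libraries lay above both controls. Of the 70 other short, highly expressed genes, 49 lay above in this way and 12 below. By subunit, 17 of 27 small-subunit and 19 of 41 large-subunit members rose, with medians of 0.56 and 0.42.

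RPL28, a large-subunit protein, had 14768 and 13777 normalised counts in siCont and 31658 and 25974 in siBRDT, a log2 fold change of 1.01 ± 0.10 (SE, adjusted p = 1.62e-05). The stalk proteins RPLP2 and RPLP1 followed at 0.92 ± 0.11 (SE, adjusted p = 3.92e-05) and 0.91 ± 0.096 (SE, adjusted p = 1.95e-05), and RPLP1 went from 47632 and 45093 to 91455 and 82797. RPS29, in the head of the small subunit, had 0.90 ± 0.11 (SE, adjusted p = 4.98e-05), from 10428 and 10159.7 to 19687 and 18823. In all 4 the lowest treated library was clear of the highest control. RPS19 (0.80 ± 0.098 SE, adjusted p = 5.21e-05), RPS27A (0.63 ± 0.098 SE, adjusted p = 2.46e-04) and RPS6 (0.59 ± 0.092 SE, adjusted p = 2.72e-04) also rose.

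The stalk's scaffold RPLP0 had 0.21 ± 0.092 (SE, adjusted p = 0.0772), with 26268 and 26327 in siCont and 29049 and 31895 in siBRDT, and did not pass, unlike its partners RPLP1 and RPLP2. RPL5 had 0.14 ± 0.095 (SE, adjusted p = 0.261), RPL11 0.41 ± 0.095 (SE, adjusted p = 0.00374) and RPL10 0.31 ± 0.096 (SE, adjusted p = 0.0173). The smallest values were those of RPL17, at the exit tunnel, with -0.047 ± 0.12 (SE, adjusted p = 0.761), and RPL3, at the peptidyl transferase centre, with 0.00051 ± 0.098 (SE, adjusted p = 0.997) and overlapping groups. In TE6 the fold changes of all genes also ran with transcript length (Spearman's rho -0.48 over 12343 genes). After subtraction of each library's trend with transcript length and GC content, 11 members rose and the median was 0.15, and with coding length in its place 7 rose and the median was 0.21. Before subtraction 15.6% of all genes rose, and the shares after it are not given here.

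The difference between the lines was tested directly, as the siBRDT fold change in TE6 minus that in KYSE180, with no fold limit. 66 of 68 members were higher in TE6 and 0 lower, where 18.7% of 12598 genes were higher and 21.9% lower. The median difference was 0.88 (range 0.32 to 1.58). RPL10 (0.32 ± 0.13 SE, adjusted p = 0.0548) and RPS7 (0.35 ± 0.14 SE, adjusted p = 0.0514) were the 2 that did not pass. For RPL37A the difference was 1.58 ± 0.15 (SE, adjusted p = 1.77e-06), and for RPL19 1.41 ± 0.14 (SE, adjusted p = 2.71e-06). RPL14, RPL35, RPL37A and RPS6 were the 4 members called down in KYSE180 and up in TE6. These differences were between fold changes, each taken within its own experiment.

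**Figure D3:**
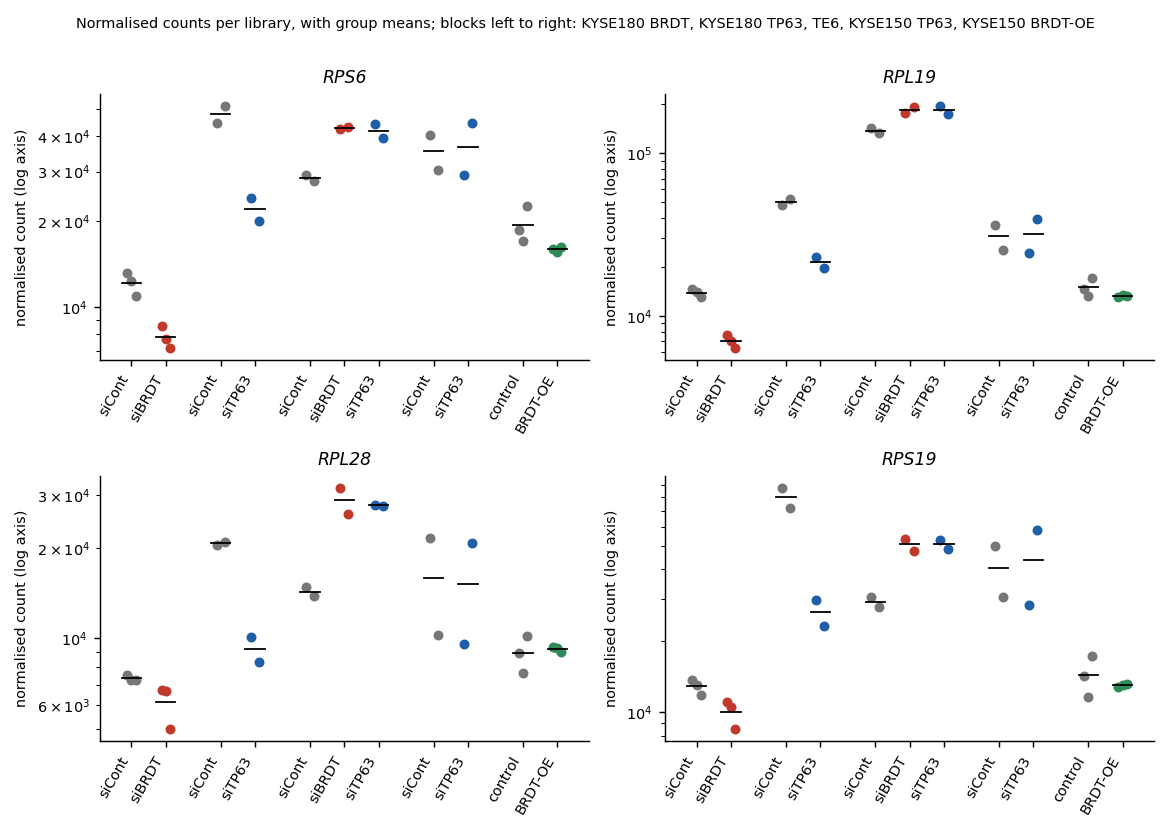
Normalised counts (log axis) of RPS6, RPL19, RPL28 and RPS19 in each library, with blocks for the 5 experiments, points for libraries and lines for group means. RPS6 is lower in both KYSE180 knockdowns and higher in both TE6 knockdowns, while the KYSE150 groups overlap or lie close.

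TP63 knockdown in KYSE180 was the only comparison in which every member was called. All 68 members fell, where 25.7% of 13924 genes fell and 23.6% rose, and in all 68 both siTP63 libraries lay below both controls. The same held for 64 of the 70 other short, highly expressed genes, while 2 of them lay above. Without the fold limit 31% of genes fell and 27.9% rose. The median log2 fold change was -1.31 (range -1.86 to -0.78), beside 0.00064 over all genes. RPS21, a small-subunit protein, had 29067 and 26867 in siCont and 8538 and 7461 in siTP63, a change of -1.81 ± 0.17 (SE, adjusted p = 2.54e-09). RPSA, the small-subunit protein also known as the laminin receptor precursor, changed by -1.77 ± 0.17 (SE, adjusted p = 4.10e-09), from 17005 and 12386 to 4737 and 3833, and RPL35 by -1.73 ± 0.18 (SE, adjusted p = 1.54e-08). The least affected were RPL3 (-0.78 ± 0.18 SE, adjusted p = 5.40e-04) and RPL15 (-0.79 ± 0.16 SE, adjusted p = 1.65e-04).

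Other named members fell as well. The log2 fold change was -1.49 ± 0.17 for RPLP0, -0.97 ± 0.18 for RPL5, -1.33 ± 0.19 for RPL11, -1.24 ± 0.14 for RPL10, -1.12 ± 0.20 for RPS6, -1.60 ± 0.21 for RPS19 and -1.18 ± 0.16 for RPS27A (SE). The interquartile range over members was -1.48 to -1.11. The decrease was wider than the family: 52 of 70 other short, highly expressed genes fell (25.7% of all genes), with a median of -1.09. Across 12798 genes the fold change ran with transcript length (Spearman's rho 0.35). With the length and GC trend removed 59 members fell and the median was -0.84, where 25.7% of all genes fell before removal and the share after it is not given here. Rescaling to equal upper quartiles moved the median of all genes to 0.19 and that of members to -1.11, with 68 members called. The split of all genes called was 3292 up and 3577 down as deposited and 4524 up and 2631 down after it.

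In TE6, part of the family was higher after TP63 knockdown. Of 68 members, 21 rose and 0 fell, where 18.3% of 13333 genes rose and 20.6% fell. Without the fold limit 52 rose (24.6% of all genes) and 1, RPL17, fell (25.8%). The median was 0.42 (range -0.48 to 0.96), beside -0.011 over all genes. By subunit, 9 of 41 large-subunit and 12 of 27 small-subunit members rose. RPL28 had 27805 and 27529 normalised counts, a log2 fold change over siCont of 0.96 ± 0.10 (SE, adjusted p = 1.14e-05). RPS12 had 14163 and 13807 in siCont and 27862 and 23027 in siTP63 (0.86 ± 0.10 SE, adjusted p = 2.56e-05), and RPS19 30424 and 27652 in siCont and 52947 and 48286 in siTP63 (0.80 ± 0.098 SE, adjusted p = 3.22e-05). RPS20, in the head of the small subunit, had 0.76 ± 0.10 (SE, adjusted p = 5.90e-05). In these 4 the groups did not overlap.

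RPS6 (0.55 ± 0.092 SE, adjusted p = 3.32e-04) and RPS27A (0.53 ± 0.098 SE, adjusted p = 7.16e-04) rose as well. RPLP0 (0.38 ± 0.092 SE, adjusted p = 0.00440), RPL11 (0.43 ± 0.095 SE, adjusted p = 0.00236) and RPL10 (0.44 ± 0.096 SE, adjusted p = 0.00205) passed on adjusted p but not on size, and RPL5 had 0.068 ± 0.095 (SE, adjusted p = 0.580). At the low end RPL17 had -0.48 ± 0.12 (SE, adjusted p = 0.00379), with 688 and 659.8 in siCont and 511 and 454 in siTP63. With 1 siTP63 library left, the member median was 0.31 without replicate 1 and 0.52 without replicate 2, and the count of members that rose changed with it. With the length and GC trend removed 10 rose, RPL17 fell and the median was 0.18. With coding length in its place 3 rose, 2 fell and the median was 0.21. Before removal 18.3% of all genes rose and 20.6% fell, and the shares after it are not given here.

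Because both TE6 knockdowns were set against the same 2 siCont libraries, their member values are given side by side only. RPL28 had 1.01 in siBRDT and 0.96 in siTP63, RPS19 0.80 and 0.80, RPS29 0.90 and 0.67, and RPL35 0.70 and 0.26. Set directly against each other, siTP63 minus siBRDT, 1 member passed both limits, where 14.3% of genes were lower and 14.1% higher. The median difference over members was -0.11. The count changed when single knockdown libraries were left out, which left 1 library in an arm.

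The siTP63 fold change in TE6 minus that in KYSE180 was above 0 and passed in all 68 members, where 30.6% of 12711 genes were higher in TE6 and 28.8% lower. The median difference was 1.72 (range 0.77 to 2.40). Among the 70 other short, highly expressed genes 60 were higher, with a median of 0.92. For RPS19 the difference was 2.40 ± 0.20 (SE, adjusted p = 1.47e-07) and for RPLP2 2.33 ± 0.18 (SE, adjusted p = 8.02e-08). RPS6 was the only member called down in both KYSE180 knockdowns and up in both TE6 knockdowns.

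**Figure D4:**
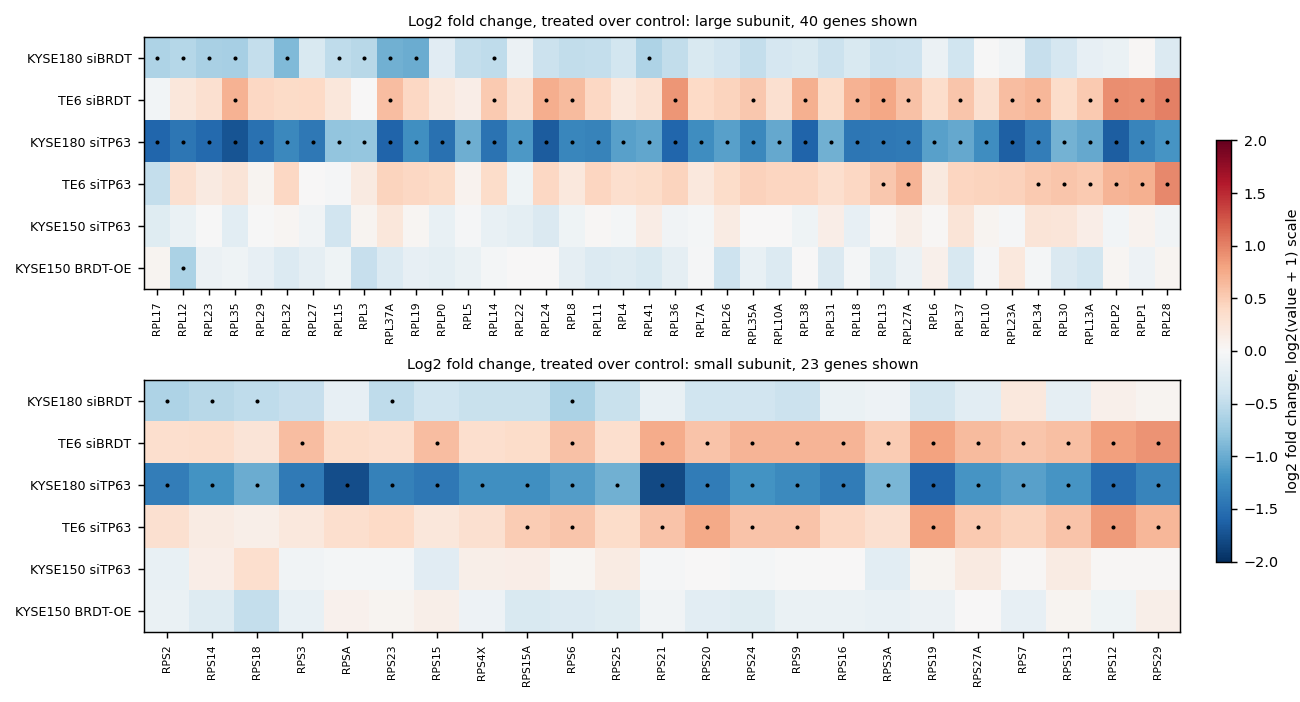
Log2 fold change of the members named on the x axis, treated over control, in the 6 comparisons (rows), for the large subunit above and the small subunit below, with genes ordered by their mean over the comparisons and black dots on calls. The KYSE180 siTP63 row is blue throughout, the TE6 rows are mostly red, and the KYSE150 rows are pale, with 1 call (RPL12).

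KYSE150 siTP63 gave no call in limma for any gene in either direction. At an unadjusted p under 0.05, 8.67% of 12335 genes were higher and 9.12% lower, but 0 of 68 members in either direction, and edgeR and DESeq2 called 0 members (202 genes up and 259 down in DESeq2, 0 in edgeR). With adjustment in limma, 0% of genes passed. The median over members was 0.011, beside -0.0077 over all genes. Replicates differed from each other more than the groups did. Against the mean of the 2 controls, all 68 members were above in siCont replicate 1 and none in replicate 2 (member medians 0.28 and -0.28), while 3 members were above in siTP63 replicate 1 and 65 in replicate 2 (medians -0.37 and 0.38). RPL11, for example, had 48195 and 31074 in siCont and 30381 and 50847 in siTP63, and RPS6 had 40382 and 30375 and then 29049.7 and 44341. Among the extremes were RPS18 (0.34 ± 0.36 SE, adjusted p = 0.664), RPL15 (-0.39 ± 0.28 SE, adjusted p = 0.515) and RPL24 (-0.29 ± 0.42).

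Set against KYSE180, the siTP63 fold change in KYSE150 was higher in 1 of 68 members, RPL17 (1.34 ± 0.24 SE, adjusted p = 0.0399), where 0.774% of 11891 genes were higher and 0.849% lower. The median difference was 1.33 (range 0.41 to 1.83), all above 0. The count depended on siTP63 replicate 1 of KYSE150, whose removal left 1 library in that arm. In DESeq2 it was 52, and the share of all genes that differed there is not given here.

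With BRDT overexpressed in KYSE150, 1 member was called. Of 68 members, 0 rose and 1 fell, where 10.5% of 12765 genes rose and 16% fell, and without the fold limit 12 fell (25%) and 0 rose (26.1%). The median was -0.14 (range -0.64 to 0.21), beside 0.017 over all genes. The member that fell was RPL12, at the base of the stalk, with 11908, 10440.4 and 13775 normalised counts in the control and 7687, 7638 and 7752 in BRDT-OE (-0.64 ± 0.095 SE, adjusted p = 3.57e-04). RPS18, in the head of the small subunit (-0.47 ± 0.11 SE, adjusted p = 0.00474), and RPL3 (-0.46 ± 0.092 SE, adjusted p = 0.00201) came next and did not reach the fold limit. The highest were RPL23A (0.21 ± 0.15 SE, adjusted p = 0.253) and RPS29 (0.12 ± 0.24 SE, adjusted p = 0.694).

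RPS6 had -0.28 ± 0.10 (SE, adjusted p = 0.0393), RPL11 -0.28 ± 0.11 (SE, adjusted p = 0.0505), RPLP0 -0.20 ± 0.12 (SE, adjusted p = 0.185), RPL5 -0.14 ± 0.10 (SE, adjusted p = 0.289), RPS19 -0.12 ± 0.12 (SE, adjusted p = 0.419), RPL10 -0.024 ± 0.13 (SE, adjusted p = 0.886) and RPS27A 0.015 ± 0.13 (SE, adjusted p = 0.928). Here the control libraries differed as a block: against their mean, 24, 0 and 68 members were above in control replicates 1, 2 and 3, with medians of -0.011, -0.23 and 0.25, and the 3 BRDT-OE libraries lay at -0.14, -0.16 and -0.14. The count of members that fell was 4 without control replicate 2, and the share of all genes in that fit is not given here.

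Among the 9 symbols under the minimum, 2 rose in BRDT-OE (10.5% of all genes) and 1 fell (16%). RPS26, which lines the mRNA exit channel, had 173, 172 and 249 normalised counts in the control and 481, 509 and 512 in BRDT-OE, a log2 fold change of 1.36 ± 0.14 (SE, adjusted p = 3.56e-05). RPS10, in the head of the small subunit, had 21.7, 23.6 and 25.2 and then 73.1, 61.7 and 49.2 (1.33 ± 0.21 SE, adjusted p = 4.49e-04). RPS27 had 127, 82.1 and 152 and then 75.7, 68.5 and 77.3 (-0.66 ± 0.21 SE, adjusted p = 0.0225). For RPS26 all 3 treated libraries lay above the highest control, while no member rose in this comparison.

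In the other comparisons RPS26 had -0.032 ± 0.18 (KYSE180 siBRDT), 0.65 ± 0.23 (TE6 siBRDT), -1.06 ± 0.20 (KYSE180 siTP63), 0.56 ± 0.23 (TE6 siTP63) and 0.050 ± 0.23 (KYSE150 siTP63). It fell in KYSE180 siTP63 and rose in TE6 siBRDT, the latter with an adjusted p of 0.0359 in limma that passed the threshold neither in DESeq2 nor with the length trend removed. RPL39, of the exit tunnel, had -0.38 ± 0.19, 0.74 ± 0.14, -1.20 ± 0.17, 0.31 ± 0.14 and 0.23 ± 0.33 in the same order and -0.13 ± 0.22 in BRDT-OE, and was called in TE6 siBRDT and KYSE180 siTP63. RPS28 rose in TE6 siBRDT (1.02 ± 0.13) and siTP63 (0.87 ± 0.13). Over the 9 symbols, 8 fell in KYSE180 siTP63 (25.7% of all genes) and 4 rose in TE6 siBRDT (15.6%), with medians of -1.20 and 0.58. In TE6 siTP63 3 rose (18.3%) and 1 fell (20.6%), with a median of 0.31, and in KYSE180 siBRDT 0 rose (14.5%) and 1 fell (15.8%). The annotation holds 36 copies named after RPS26 and 19 after RPL39.

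Members were also read by role, in lists made with the results known. The 4 stalk genes (RPLP0, RPLP1, RPLP2 and RPL12) had medians of -0.18 in KYSE180 siBRDT, 0.57 in TE6 siBRDT, -1.46 in KYSE180 siTP63 and 0.53 in TE6 siTP63. For the 7 exit tunnel members they were -0.44, 0.42, -1.23 and 0.34, and for the 3 of the mRNA channel (RPS2, RPS3 and RPS23) -0.51, 0.33, -1.39 and 0.32. Of 13 members mutated in Diamond-Blackfan anemia, 2 fell in KYSE180 siBRDT (15.8% of all genes), 7 rose in TE6 siBRDT (15.6%), 13 fell in KYSE180 siTP63 (25.7%) and 3 rose in TE6 siTP63 (18.3%), with medians of -0.39, 0.54, -1.31 and 0.42. FAU, a ribosomal protein made as a fusion to a ubiquitin-like domain, fell in KYSE180 siTP63 (-1.38 ± 0.18) and rose in TE6 siBRDT (0.55 ± 0.092).

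Most paralogs of members lay on the members' side of 0 in 3 comparisons. In KYSE180 siBRDT 5 of the 6 tested were below 0, in TE6 siBRDT 5 of 6 above it and in KYSE180 siTP63 7 of 7 below it. In TE6 siTP63 3 were above 0 and 3 below. RPL39L, a paralog best known from the testis, had 769, 835 and 715 and 2729 and 3445 normalised counts in the KYSE180 controls and 493 and 509 in TE6, and at most 7.42 in any KYSE150 library. It fell in KYSE180 siTP63 (-1.88 ± 0.15 SE, adjusted p = 1.86e-10) and rose in TE6 siBRDT (0.75 ± 0.13 SE, adjusted p = 6.58e-04). RPL22L1 fell in both KYSE180 knockdowns (-0.58 ± 0.11 and -1.44 ± 0.14) and did not pass in TE6. RPL7L1, whose product works in ribosome assembly, fell in TE6 siBRDT (-1.14 ± 0.23 SE, adjusted p = 0.00180) and siTP63 (-0.94 ± 0.23 SE, adjusted p = 0.00493), where no member was called down.

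Related gene lists moved with the family in some comparisons and apart from it in others. The 70 other short, highly expressed genes were protein-coding genes no longer in transcript than 90% of members and at or above the lowest 10% of members in mean. Annotated member transcripts ran from 295 nt (RPS29) to 7573 nt (RPL37), so this was an upper limit and did not match the typical member length. Medians of the 70 genes were -0.18 in KYSE180 siBRDT, 0.22 in TE6 siBRDT, -1.09 in KYSE180 siTP63, 0.025 in TE6 siTP63, -0.35 in KYSE150 siTP63 and 0.19 in BRDT-OE. Members were further from 0 in the first 4, and in TE6 siTP63 16 of these 70 rose (18.3% of all genes) while 15 fell (20.6%). In BRDT-OE 16 of them rose (10.5% of all genes) and 0 fell (16%). With coding length in place of transcript length, a choice made after seeing the data, 37 genes gave medians of -0.20, 0.37, -0.87, 0.069, -0.057 and 0.040 in the same order.

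The 77 mitochondrial ribosomal protein genes moved with the family in TE6 siBRDT (48 rose, 1 fell, median 0.56) and KYSE180 siTP63 (67 fell, 0 rose, median -1.08). Over all genes 15.6% rose and 18.1% fell in the former, and 25.7% fell and 23.6% rose in the latter. In KYSE180 siBRDT 21 of these 77 rose and 3 fell, with a median of 0.28, opposite in sign to the cytoplasmic members. The 60 ribosome biogenesis genes had 19 up, 1 down and a median of 0.33 there, where 14.5% of all genes rose and 15.8% fell. In TE6 siTP63 25 biogenesis genes fell (20.6% of all genes) and 1 rose (18.3%), with a median of -0.31, beside the 21 members that rose. In BRDT-OE 34 of 60 rose (10.5% of all genes) and 1 fell (16%), with a median of 0.55.

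Among those assembly factors, NPM1, a nucleolar chaperone, had 0.57 ± 0.083 (SE, adjusted p = 2.99e-04) in BRDT-OE, with 9130.4, 10177 and 11038 in the control and 14435, 15012 and 15562 treated. NCL, which acts on ribosomal RNA precursors, had 0.70 ± 0.090 (SE, adjusted p = 1.46e-04). In TE6 siTP63 NPM1 fell (-0.57 ± 0.10 SE, adjusted p = 4.86e-04), with 8081 and 8678 in siCont and 6035 and 5288 in siTP63. FBL, the methyltransferase of ribosomal RNA, had -2.10 ± 0.15 (SE, adjusted p = 4.93e-11) in KYSE180 siTP63, below every member, and 0.66 ± 0.088 (SE, adjusted p = 8.88e-05) in TE6 siBRDT.

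The other genes with a known TOP start were also counted. Of 32, 2 fell in KYSE180 siBRDT (15.8% of all genes) and 6 rose in TE6 siBRDT (15.6%), with medians of -0.10 and 0.19. In KYSE180 siTP63 20 of the 31 tested fell (25.7% of all genes), with a median of -0.81. EEF1A1, the elongation factor that delivers aminoacyl-tRNA, had -0.038 ± 0.15 there and -0.35 ± 0.13 in TE6 siBRDT, and EEF2, the translocase, -0.15 ± 0.20 and -0.42 ± 0.13. TPT1, the translationally controlled tumour protein, had -0.42 ± 0.19 and 0.12 ± 0.093. EEF1B2, of the exchange factor for EEF1A, fell in KYSE180 siTP63 (-1.32 ± 0.14). Of 29 translation factors without a known TOP start, 17 fell (25.7% of all genes) and 1 rose (23.6%) in KYSE180 siTP63, with a median of -0.64.

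**Figure D5:**
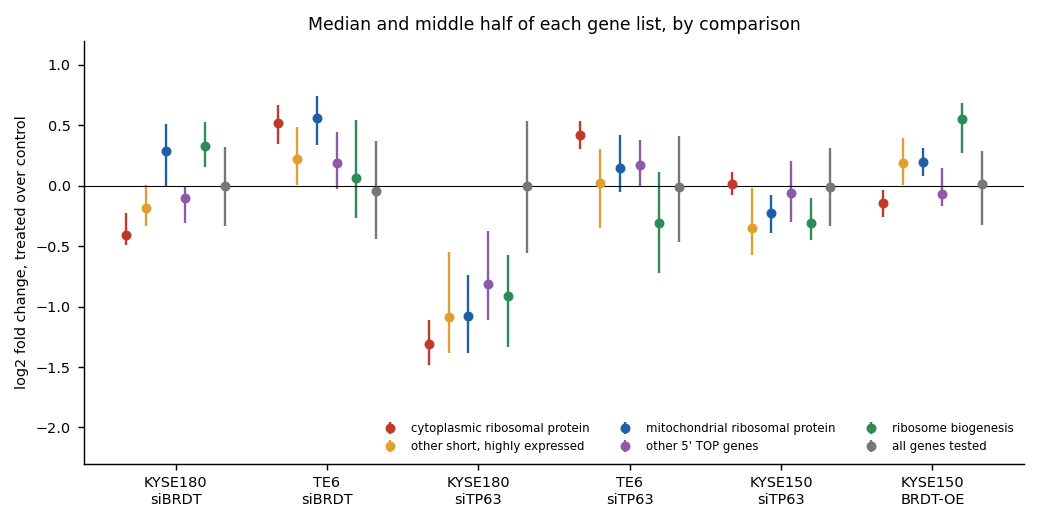
Median (points) and interquartile range (bars) of the log2 fold changes of 6 gene lists in each comparison (x axis), with 68 cytoplasmic and 77 mitochondrial ribosomal protein genes. Cytoplasmic members lie below 0 in both KYSE180 knockdowns and above 0 in both TE6 knockdowns, and ribosome biogenesis genes lie on the other side of 0 in KYSE180 siBRDT, TE6 siTP63 and BRDT-OE.

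In TE6 the log2 fold change of members ran inversely with coding length. With members in 3 groups by coding length (23 genes of 75 to 408 nt, 22 of 411 to 582 nt and 23 of 582 to 1281 nt) the TE6 siBRDT medians were 0.56, 0.58 and 0.41. In TE6 siTP63 they were 0.45, 0.41 and 0.34, and in KYSE180 siBRDT -0.40, -0.39 and -0.44. Spearman's rho with coding length over the 68 members, which share libraries and depth, was -0.40 in TE6 siBRDT, -0.34 in TE6 siTP63, 0.20 in KYSE180 siTP63 and -0.022 in KYSE180 siBRDT.

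Referring back to the start sequences, the 41 members with C and at least 4 further pyrimidines at an annotated start had a median of 0.59 in TE6 siBRDT, and the 13 others in the table had 0.34. In KYSE180 siTP63 the medians were -1.35 and -1.22, in TE6 siTP63 0.42 and 0.33, and in KYSE180 siBRDT -0.42 and -0.40. RPL19, with the largest decrease in KYSE180 siBRDT, opened with a pyrimidine run but had no match at either annotated start.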

How the data were processed

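RNA was extracted with QIAzol, libraries were made with TruSeq RNA V2, a kit that does not mark strand, and 26 libraries in 11 groups were analysed. Per the labels, the authors' processing named STAR (2.6.0), HTSeq (0.11.2), DESeq2 (1.24.0) and hg38. The annotation and the counting options, including reads that map to several places, are not given in the sources used here. The deposited values are a normalised signal, gene counts that the authors divided by a size factor per library, in 5 tables normalised separately. All values (100%) were whole multiples of 1 read within 0.01, so reads were recovered, 7582089 to 19372441 per library, and these totals set the depth behind each value. edgeR on these reads called 2082 genes up and 2052 down in KYSE180 siBRDT, 2174 and 2330 in TE6 siBRDT, 3609 and 3376 in KYSE180 siTP63, 2518 and 2785 in TE6 siTP63, 0 in KYSE150 siTP63 and 1230 and 2185 in BRDT-OE.

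Each table was fitted alone with limma 3.58.1 (R 4.3.3, trend = TRUE) on log2(value + 1), for genes with a mean of at least 10, with Benjamini-Hochberg adjustment over all genes tested. The 3 TE6 groups shared 1 fit. Fold changes are on the log2(value + 1) scale, which understates changes of low genes. Contrasts between lines compared fold changes within 1 fit of both tables. The scripts were tested on simulated data. Genes were named by a rule: 9 fixed genes in each comparison, the 4 most changed in each direction among called members with groups that did not overlap, the 2 most extreme where none was called, and fixed lists of related genes. RPL14, RPS10, RPS27, RPL9, RPS28, RPS29 and RPL35 in TE6 siTP63, RPL19 and RPL37A in the contrasts and the genes beside RPL19 were chosen after their values were seen. The members and all lists were chosen with earlier results of these data known. Coordinates are hg38 (GENCODE v44 and, for start sequences, RefSeq on GRCh38.p14), and 87.4% of symbols matched GENCODE for length and GC content. Promoter entries were matched by symbol. No entry was matched for 14 members. Some genes and their results are not reported here. Alternatives were edgeR 4.0.16 and DESeq2 1.42.0 on recovered reads, another pseudocount (0.1), no filter, upper-quartile rescaling, a replicate block, removal of length and GC trends and leaving out each library.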

Additional observations from a re-analysis of the deposited data

Results flagged for a closer look

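The response of the ribosomal protein genes to the same knockdown differed between cell lines by a test of the difference itself. For siBRDT, 66 of 68 members differed between TE6 and KYSE180, all higher in TE6, by a median of 0.88 on the log2 scale, and 42 of the 70 other short, highly expressed genes were also higher there (median 0.43), as were 18.7% of all genes. For siTP63, 68 of 68 differed between the same lines, all higher in TE6, by a median of 1.72, and 60 of the 70 short, highly expressed genes (median 0.92) and 30.6% of all genes were higher there. For siTP63 in KYSE150 against KYSE180, 1 of 68 differed, RPL17, and the median difference was 1.33. Each line is 1 line grown in its own experiment, so cell line and experiment cannot be told apart. No group had more than 3 libraries, so single libraries that stand apart were not tested for.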

How the results depend on the processing

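The member median kept its sign in both KYSE180 and both TE6 knockdowns under every setting run, while in KYSE150 siTP63, where limma called no gene, it changed sign when single libraries were left out and, at -0.046 and -0.040, with the length and coding length trends removed. With the length and GC trend removed, TE6 siBRDT had 11 members up (median 0.15), TE6 siTP63 10 up and 1 down (median 0.18), and KYSE180 siTP63 a median of -0.84, while 19 members differed for siTP63 between KYSE150 and KYSE180 and 0 between the TE6 knockdowns. With coding length, added after seeing the data, these were 7 up (median 0.21), 3 up and 2 down (median 0.21), -0.91 and 23. Shares of all genes called with either trend removed are not given here. With upper-quartile rescaling, KYSE180 siTP63 had a median of -1.11, BRDT-OE 4 members down and the contrast of KYSE150 with KYSE180 0 differences. edgeR called 2 members down in BRDT-OE, and DESeq2 52 differences between KYSE150 and KYSE180. The share of all genes that differed in DESeq2 is not given here. Without the fold limit KYSE180 siBRDT had 51 down and 1 up, TE6 siBRDT 60 up, TE6 siTP63 52 up and 1 down, and BRDT-OE 12 down. Beyond the construction of these settings the cause was not tested.

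With the replicate number as a block, samples shared only a number (same-number correlations -0.70 to 0.18, and not every library correlated best with its own number). Under this block the contrast of KYSE150 with KYSE180 had 0 differences, also with upper-quartile rescaling (0, with KYSE180 siTP63 at a median of -1.11 and BRDT-OE at 4 down) and with the trend removed (0). Block and trend removal together gave 11 up in TE6 siBRDT (median 0.15), 10 up and 1 down in TE6 siTP63 (median 0.18), a median of -0.84 in KYSE180 siTP63 and 0 differences between the TE6 knockdowns. In KYSE150 siTP63, where the numbers correlated at -0.70, the crossed pairing, added after seeing the data, called 1626 genes up and 1774 down, but 0 members.

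Leaving out each library gave 11 to 30 members down and a median of -0.48 to -0.34 in KYSE180 siBRDT, 33 to 37 up and 0.50 to 0.53 in TE6 siBRDT, 68 down throughout and -1.40 to -1.21 in KYSE180 siTP63, and 11 to 36 up, 0 to 1 down and 0.31 to 0.52 in TE6 siTP63. In KYSE150 siTP63 the median ran from -0.37 to 0.38 with 0 calls, and in BRDT-OE 1 to 4 were down (median -0.27 to -0.012). Members that differed numbered 63 to 68 (siBRDT, TE6 and KYSE180), 0 to 66 (siTP63, KYSE150 and KYSE180) and 0 to 5 (TE6 knockdowns), and 68 throughout for siTP63 in TE6 and KYSE180. Where an arm was left with 1 library, it was taken to vary like the others. Shares of all genes called with a library left out are not given here, so these counts have no background beside them. Counted over all settings, 31 values of single genes lost and 18 gained a call, and none changed sign with a call. The effect of depth on calls of the lowest members was not tested.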
